A study of Arabidopsis thaliana with 12 samples.

Results

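The phytochrome-interacting factors (PIFs) PIF1, PIF3, PIF4, PIF5, PIF7 and PIF8 and their helix-loop-helix partners HFR1, PIL1 and PAR1 were followed in Arabidopsis thaliana seedlings that carried fewer transcripts of histone H3.3, histone H2A.Z or both. The 9 genes were chosen by locus, with earlier results of these data known, and all 9 of the 23387 genes in the deposited table were found and passed the filter on low values. RNA was sequenced from 4 genotypes with 3 libraries each, 12 in all. They were h3.3kd;h2a.z (called the combined line below), h3.3kd (given as h3.3kd-1 in the genotype field), h2a.z, and Col, the wild type. Every library came from seedlings 7 days old that had grown in short days at 21 °C and were then held at 27 °C for 12 h, so the warm treatment was common to all 4 genotypes and its own effect cannot be read from these data. The sources used here do not state the alleles, the method of H3.3 knockdown or the number of independent lines. Nothing there says that the 3 libraries of a genotype came from separate cultures, so p-values measure only the spread between these libraries, which may be technical.

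PIFs are basic helix-loop-helix transcription factors that bind E-box DNA, chiefly the G-box and the related PBE-box, and switch on genes of auxin synthesis and cell wall loosening. Light acting through phytochromes marks most PIF proteins for destruction, and warmth lets PIF4, PIF5 and PIF7 drive the elongation of hypocotyls and petioles. HFR1, PIL1 and PAR1 are helix-loop-helix proteins that pair with PIFs and restrain them, and PIF transcription factors in turn activate several of these partners, which makes a feedback loop. H3.3 and H2A.Z are replacement histones that are loaded into chromatin outside of DNA replication, and loss of H2A.Z is known to mimic part of the warm response of Arabidopsis. Transcript levels do not report PIF protein, which is regulated by light and temperature after translation.

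The sequences that bear on this feedback loop are the PIF-type boxes upstream of the 9 genes themselves. Both motifs were searched on both strands of the 2000 bases before each annotated gene start (RefSeq genome, build TAIR10.1), the G-box CACGTG, which reads the same on both strands, and the PBE-box CACATG or its reverse complement CATGTG. The stretches below carry 27 bases on each side of the named box, are written 5′ to 3′ on the strand of the gene, and have every G-box and PBE-box in capitals. They show the G-boxes of the partners and of PIF5 and PIF7, and the single PBE-boxes of PIF4 and PIF3.
PIL1 with 2 G-boxes, chr2:19299037-19299107, minus strand: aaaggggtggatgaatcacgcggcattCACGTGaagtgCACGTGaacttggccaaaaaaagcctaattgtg
PIL1 with 1 G-box, chr2:19298919-19298978, minus strand: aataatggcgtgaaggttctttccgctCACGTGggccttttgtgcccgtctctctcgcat
HFR1 distal G-box, chr1:469267-469326, minus strand: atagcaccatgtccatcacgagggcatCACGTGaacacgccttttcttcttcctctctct
HFR1 proximal G-box, chr1:468848-468907, minus strand: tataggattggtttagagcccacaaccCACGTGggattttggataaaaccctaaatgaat
PAR1 G-box with a PBE-box at its end, chr2:17838523-17838582, minus strand: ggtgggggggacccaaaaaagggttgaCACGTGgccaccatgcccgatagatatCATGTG
PIF5 G-box, chr3:21830970-21831029, minus strand: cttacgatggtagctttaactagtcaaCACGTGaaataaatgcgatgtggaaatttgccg
PIF7 G-box, chr5:24641996-24642055, minus strand: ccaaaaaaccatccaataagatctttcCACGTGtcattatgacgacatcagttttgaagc
PIF4 PBE-box, chr2:17885567-17885626, plus strand: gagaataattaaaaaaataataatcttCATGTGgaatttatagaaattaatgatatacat
PIF3 PBE-box, chr1:3074051-3074110, plus strand: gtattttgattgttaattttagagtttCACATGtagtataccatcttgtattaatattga

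All 3 partners carried a G-box. The 3 G-boxes of PIL1 lay 1222, 1211 and 1093 bases before its start, the 2 of HFR1 lay 1419 and 1000 bases before it, and the single G-box of PAR1 lay 937 bases before it, inside the annotated long non-coding gene AT2G09405. Among the PIF genes, PIF5 had 1 G-box, 165 bases before its start, and PIF7 had 1 at 1263 bases. PIF4 had no G-box in this window and 1 PBE-box at 507 bases, and PIF3 had 1 PBE-box at 1690 bases. PBE-boxes also lay before HFR1 at 413 bases, before PIF7 at 1979, 1829 and 878 bases, and before PAR1 at 910, 776, 742 and 731 bases. PIF1 and PIF8 had neither motif in the window, which says only that these letters are not there. In all, 5 of 9 members held a G-box and 5 of 9 a PBE-box within 2000 bases, against 23.8% and 61.0% of 27440 protein-coding genes. Within 250 bases the shares were 1 of 9 and 0 of 9, against 6.49% and 11.1% of 27443 genes. A match is a description of the DNA, not evidence of binding.

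**Figure D1:**
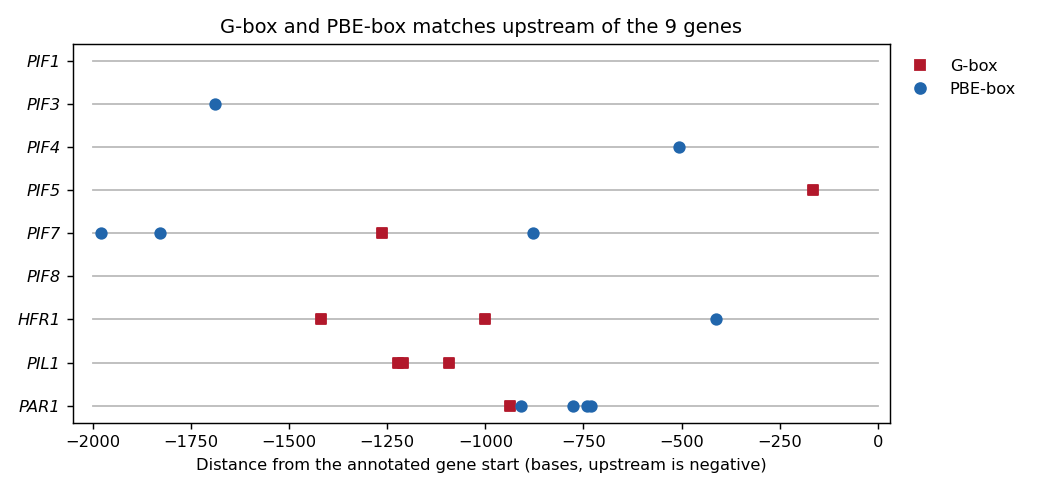
Positions of the G-box and the PBE-box before the start of each of the 9 genes, with distance upstream in bases on the horizontal axis and 1 row per gene. The 3 partners hold 6 G-boxes in all, the nearest to a start in any member is that of PIF5 at 165 bases, and PIF1 and PIF8 have no mark.

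The targeted histone genes were each lower in the lines named for them, though not by the same amount. The summed level of the 3 H3.3 genes was 127 ± 16.7 TPM (transcripts per 1000000, a level corrected for gene length and library size) in the combined line, 146 ± 36.8 TPM in h3.3kd, 825 ± 44.8 TPM in h2a.z and 1166 ± 124 TPM in Col (mean ± SD, n = 3 each). The 3 H2A.Z genes summed to 91.4 ± 9.19 TPM in the combined line, 259 ± 78.7 TPM in h3.3kd, 34.7 ± 2.38 TPM in h2a.z and 316 ± 78.7 TPM in Col. The H3.3 sum in h2a.z, at most 873 TPM, also lay below Col, at least 1041 TPM, and the combined line held more H2A.Z transcript than h2a.z, mostly HTA9 at 87.2 ± 8.79 TPM in the combined line and 32.1 ± 2.08 TPM in h2a.z. Read depth is unknown from TPM, and between 19590 and 22019 genes were above 0 in a library. As whole seedlings were used, fewer cells of a type and less RNA per cell cannot be told apart. The 3 mesophyll markers summed to 47664 to 49711 TPM in the combined line, 30664 to 61884 TPM in h3.3kd, 29782 to 33167 TPM in h2a.z and 34840 to 43571 TPM in Col, all 3 above 0 in every library. The 5 seed and embryo markers summed to 171 to 393 TPM in the combined line, 39.7 to 66.3 TPM in h3.3kd, 45.2 to 159 TPM in h2a.z and 3.38 to 4.05 TPM in Col, and LEC1 was at 0 in at least 1 library of every genotype. The 3 epidermis markers summed to 923 to 966 TPM in the combined line, 554 to 737 TPM in h3.3kd, 845 to 1048 TPM in h2a.z and 725 to 1033 TPM in Col, and the 3 vasculature markers to 162 to 194 TPM in the combined line, 124 to 183 TPM in h3.3kd, 220 to 252 TPM in h2a.z and 140 to 178 TPM in Col. The 3 guard cell markers summed to 22.5 to 23.5 TPM in the combined line, 23.9 to 25.7 TPM in h3.3kd, 18.7 to 32.7 TPM in h2a.z and 26.5 to 43.9 TPM in Col, so that both lines with the knockdown lay below Col. The 5 root markers summed to 78.3 to 87.2 TPM in the combined line, 54.1 to 93.0 TPM in h3.3kd, 82.6 to 88.2 TPM in h2a.z and 61.0 to 80.9 TPM in Col, with RHD6 at 0 in 1 combined-line library. These sums were carried by their most abundant markers, and some others did not follow them. LHCB2.1 of mesophyll averaged 38.2 TPM in the combined line, 34.2 TPM in h3.3kd, 70.7 TPM in h2a.z and 57.7 TPM in Col. In the same order, APL of vasculature averaged 8.95, 11.8, 16.6 and 16.9 TPM, and ABI3 of seed 1.66, 3.72, 0.358 and 2.98 TPM. The root markers WER, RHD6 and COBL9 had lower means in both lines with the knockdown than in h2a.z and Col. The part of tissue makeup in the results below was not tested.

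PIF4 (AT2G43010, chr2:17886101-17889087, plus strand), the main activator of growth in warmth, was lower in both lines with reduced H2A.Z. It stood at 19.1, 19.5 and 17.9 TPM in the combined line, at 37.0, 32.1 and 40.8 TPM in h3.3kd, at 29.6, 17.8 and 16.1 TPM in h2a.z, and at 35.7, 30.1 and 45.1 TPM in Col. All 3 combined-line libraries and all 3 h2a.z libraries lay below every Col library, whereas the h3.3kd libraries lay within the Col range. On the log2(TPM + 1) scale, PIF4 fell by 0.92 ± 0.21 in the combined line against Col (standard error, limma adjusted p = 0.0067) and by 0.81 ± 0.21 in h2a.z against Col (limma adjusted p = 0.016). In h3.3kd against Col the difference was 0.00, with a 95% interval from -0.44 to 0.44. The combined line was also lower than h3.3kd, by a difference of -0.92 ± 0.21 (limma adjusted p = 0.020), and against h2a.z its difference was -0.11, with an interval from -0.55 to 0.33. The comparisons with Col share the 3 Col libraries and are not independent of each other.

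The PIF4 call in the combined line against Col held in every alternative that was run, with adjusted p between 0.0020 and 0.036 in limma. The h2a.z call did not hold when some single libraries were left out. Its limma adjusted p was 0.078 without h2a.z replicate 2, 0.086 without h2a.z replicate 3 and 0.078 without Col replicate 3. The difference was then -0.71, -0.64 and -0.66. The call against h3.3kd ended likewise without combined-line replicate 1, 2 or 3 (limma adjusted p = 0.066, 0.066 and 0.084) and without h3.3kd replicate 3 (0.085). The differences were -0.93, -0.94, -0.88 and -0.84 in that order. The first h2a.z library was high in PIF4 and PIF5 and low in PIF7 and PIF8 against the other 2 h2a.z libraries, with PIF8 at 8.82 TPM against 15.1 and 16.8 TPM.

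**Figure D2:**
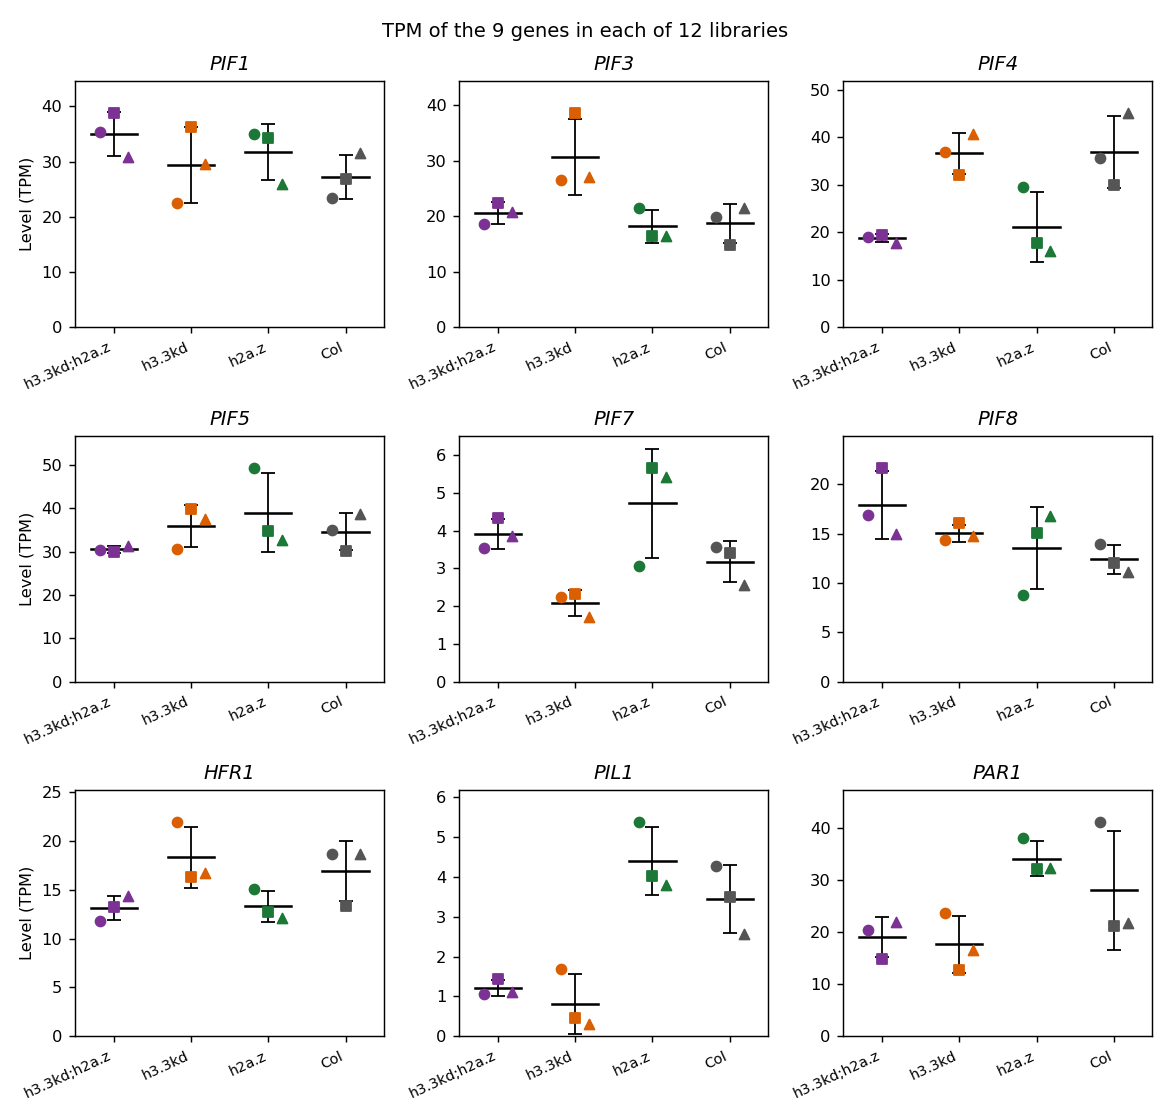
TPM of the 9 genes in every library, 1 panel per gene, with the 4 genotypes from left to right as combined line, h3.3kd, h2a.z and Col, and points shaped by replicate number, with the mean and SD. PIF4 sits between 16.1 and 29.6 TPM in the combined line and in h2a.z, and between 30.1 and 45.1 TPM in h3.3kd and in Col, and PIL1 sits at or below 1.68 TPM in the combined line and h3.3kd.

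PIL1 (AT2G46970, chr2:19295431-19297858, minus strand), a helix-loop-helix partner that is induced in shade and binds PIFs and HFR1, was lower in both lines with the H3.3 knockdown. Its level was 1.05, 1.44 and 1.12 TPM in the combined line, 1.68, 0.453 and 0.310 TPM in h3.3kd, 5.38, 4.01 and 3.79 TPM in h2a.z, and 4.26, 3.51 and 2.57 TPM in Col. All 6 libraries with the knockdown lay below all 6 without it. The level of PIL1 fell by 1.35 ± 0.28 in h3.3kd against Col on the log2(TPM + 1) scale (limma adjusted p = 0.0046). The mean level was 0.815 ± 0.754 TPM in h3.3kd and 3.45 ± 0.850 TPM in Col, and the scale with a pseudocount understates changes of such low genes. The combined line fell by 1.28 ± 0.28 against h2a.z (limma adjusted p = 0.0034) and by 1.0 ± 0.28 against Col (limma adjusted p = 0.021). Against h3.3kd the combined line differed by 0.35, with an interval from -0.24 to 0.94, and h2a.z differed from Col by 0.29, with an interval from -0.30 to 0.87. WER, a root epidermis marker, had a like pattern. Its level was 0.356 ± 0.0482 TPM in the combined line, 0.896 ± 0.369 TPM in h3.3kd, 4.23 ± 0.766 TPM in h2a.z and 4.07 ± 1.81 TPM in Col. The root markers RHD6 and COBL9 also had their lowest means in the combined line and h3.3kd. SCR had its highest means there, at 57.7 and 46.6 TPM beside 38.0 TPM in Col. SHR stood at 21.0 TPM in both, beside 21.4 TPM in Col. The part of these markers in the PIL1 result was not tested.

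The fall of PIL1 in h3.3kd against Col held in every alternative that could be run, with limma adjusted p between 0.00090 and 0.049, and so did that in the combined line against h2a.z, between 0.00088 and 0.042. The call in the combined line against Col did not. Its limma adjusted p was 0.055 with a pseudocount of 0.1, 0.093 after quantile normalization, 0.071 and 0.067 without combined-line replicate 1 or 3, and 0.084 and 0.051 without Col replicate 1 or 2. At 0.310 to 5.38 TPM, PIL1 was the lowest of the members in most libraries, and 2 of its h3.3kd libraries were below 1 TPM, which leaves it untested where a gene had to reach 1 TPM in all 12 libraries.

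PIF3 (AT1G09530, chr1:3075768-3079654, plus strand), the founding member of the family and an activator of growth in darkness, was higher in h3.3kd. It stood at 18.5, 22.4 and 20.8 TPM in the combined line, 26.6, 38.6 and 27.0 TPM in h3.3kd, 21.6, 16.5 and 16.5 TPM in h2a.z and 19.9, 14.8 and 21.6 TPM in Col. The h3.3kd libraries lay above all others, and the other 9 libraries overlapped. PIF3 rose in h3.3kd against Col by 0.68 ± 0.19 on the log2(TPM + 1) scale (limma adjusted p = 0.024). Samples with the same replicate number deviated together in these 2 genotypes, and with the replicate block in a fit of the 2 alone the limma adjusted p was 0.119, while a fit of the 2 without the block gave 0.118. Leaving out h3.3kd replicate 2 gave a limma adjusted p of 0.055, and leaving out Col replicate 2 gave 0.088. The difference of the combined line from h3.3kd was -0.54 ± 0.19 (limma adjusted p = 0.147), and that of the combined line from Col was 0.14, with an interval from -0.26 to 0.55.

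PAR1 (AT2G42870, chr2:17836416-17837618, minus strand), a helix-loop-helix protein that lacks DNA binding and holds PIF4 inactive, had its lowest means in the same 2 lines as PIL1. It stood at 20.4, 14.8 and 21.9 TPM in the combined line, 23.6, 12.8 and 16.6 TPM in h3.3kd, 38.1, 32.1 and 32.2 TPM in h2a.z, and 41.1, 21.2 and 21.7 TPM in Col. The combined line lay below h2a.z without overlap, whereas h3.3kd overlapped Col, in which replicate 1 stood apart at 41.1 TPM. PAR1 fell by 0.82 ± 0.26 in the combined line against h2a.z on the log2(TPM + 1) scale (limma adjusted p = 0.029). This call ended in 7 settings, with limma adjusted p between 0.058 and 0.129. They were median-ratio rescaling (0.085), quantile normalization (0.083), leaving out combined-line replicate 1 or 2 (0.058 and 0.129), and leaving out h2a.z replicate 1, 2 or 3 (0.101, 0.064 and 0.063). Its difference in h3.3kd against Col was -0.61 ± 0.26 (limma adjusted p = 0.116). It was 0.045 without h3.3kd replicate 1 and 0.037 with the replicate block over all 12 libraries, but 0.090 with the replicate block in the 2 genotypes alone.

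HFR1 (AT1G02340, chr1:465616-467880, minus strand), which lacks the typical DNA-binding residues and forms inactive dimers with PIFs, passed the test in no comparison. It averaged 13.1 ± 1.24 TPM in the combined line, 18.3 ± 3.12 TPM in h3.3kd, 13.3 ± 1.61 TPM in h2a.z and 16.9 ± 3.07 TPM in Col (SD, n = 3 each). In the combined line every library was below every h3.3kd library, at a difference of -0.44 ± 0.18 on the log2(TPM + 1) scale (limma adjusted p = 0.225). Against Col the differences were -0.33 in the combined line, 0.11 in h3.3kd and -0.31 in h2a.z, with intervals that all held 0.

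The other 4 PIFs passed the test in no comparison. PIF1 (AT2G20180, chr2:8704024-8707009, minus strand), which restrains seed germination and greening, averaged 35.0 ± 4.01 TPM in the combined line, 29.4 ± 6.84 TPM in h3.3kd, 31.7 ± 5.02 TPM in h2a.z and 27.2 ± 4.06 TPM in Col, with overlap between all neighbours in that order. PIF5 (AT3G59060, chr3:21827905-21830837, minus strand), the closest relative of PIF4, averaged 30.5 ± 0.724 TPM in the combined line, 36.0 ± 4.86 TPM in h3.3kd, 38.9 ± 9.10 TPM in h2a.z and 34.6 ± 4.21 TPM in Col. Its difference from Col was -0.17 in the combined line and 0.15 in h2a.z on the log2(TPM + 1) scale, with intervals from -0.53 to 0.19 and from -0.21 to 0.51.

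PIF7 (AT5G61270, chr5:24638491-24640765, minus strand), which acts in shade and warmth, was the least abundant PIF. It stood at 3.53, 4.34 and 3.85 TPM in the combined line, 2.24, 2.31 and 1.70 TPM in h3.3kd, 3.07, 5.66 and 5.41 TPM in h2a.z and 3.56, 3.42 and 2.55 TPM in Col. The h3.3kd libraries lay below the others, with differences of -0.43 ± 0.23 against Col (limma adjusted p = 0.209) and, in the combined line against h3.3kd, of 0.67 ± 0.23 (limma adjusted p = 0.133). PIF8 (AT4G00050, chr4:17639-20183, plus strand), which acts in far-red light responses, stood at 16.9, 21.7 and 15.0 TPM in the combined line, 14.3, 16.0 and 14.7 TPM in h3.3kd, 8.82, 15.1 and 16.8 TPM in h2a.z and 14.0, 12.1 and 11.1 TPM in Col. The combined line and h3.3kd both lay above Col without overlap, at 0.48 ± 0.21 (limma adjusted p = 0.138) and 0.26 ± 0.21 (limma adjusted p = 0.435). PIF7 and PIF1 each overlap a gene on the opposite strand, AT5G61260 by 318 bases and AT2G20170 by 334 bases. The strand setting of the counting is not stated, so reads in these overlaps cannot be told apart.

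**Figure D3:**
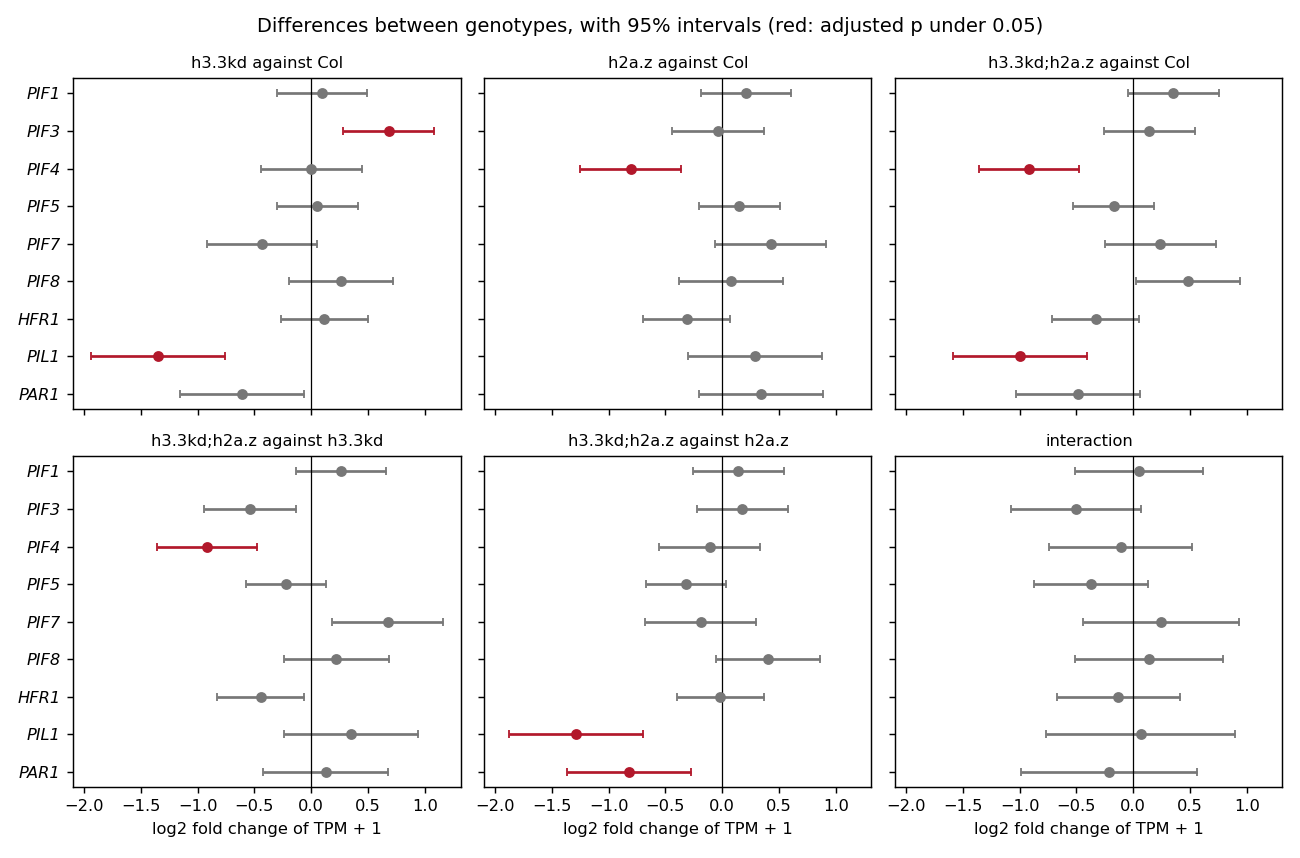
Differences between genotypes for the 9 genes on the log2(TPM + 1) scale, as points with 95% intervals from limma, in 1 panel per comparison. Red marks the calls at an adjusted p under 0.05: PIF3 and PIL1 in h3.3kd against Col, PIF4 in h2a.z against Col, PIF4 and PIL1 in the combined line against Col, PIF4 in the combined line against h3.3kd, and PIL1 and PAR1 in the combined line against h2a.z. The interaction panel has none. All panels are from the main fit, which held no replicate block.

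The number of members called lay within 1 of what the background share gives for 9 genes. That was 0.383 to 2.22 genes depending on the pair of genotypes, and 0.224 genes for the interaction. In h3.3kd against Col 2 of 9 were called, 1 higher and 1 lower, where 17.3% of the 19937 tested genes were called, 5.41% higher and 11.9% lower. With the replicate block in these 2 genotypes alone, 1 of 9 was called, lower, and 1728 of all tested genes, where the main fit called 3450. In h2a.z against Col 1 of 9 was called, lower, against a background of 15.1%, 10.5% higher and 4.56% lower. In the combined line against Col 2 of 9 were called, both lower, against 18.7%, 6.17% higher and 12.6% lower. Against h3.3kd the combined line had 1 of 9 called, lower, against 4.25%, 2.43% higher and 1.83% lower. Against h2a.z it had 2 of 9 called, both lower, against 24.7%, 5.34% higher and 19.3% lower. The libraries did not overlap for 3 members in the combined line against Col (42.3% of all tested genes), 4 in h3.3kd against Col (28.3%), 1 in h2a.z against Col (34.4%), 4 for the combined line against h3.3kd (20.5%) and 3 for the combined line against h2a.z (52.1%). The median difference of the 9 genes was -0.17 in the combined line against Col, beside -0.10 for all tested genes. It was 0.05 beside -0.12 in h3.3kd against Col, and 0.15 beside 0.05 in h2a.z against Col. The interaction asks whether the H3.3 knockdown changed a gene by a different amount in the h2a.z background than in Col. It was called in 0 of 9 members (limma) and in 2.49% of all genes, 0.637% higher and 1.85% lower, and 0 of 9 had an unadjusted p under 0.05. Its largest value among the members was that of PIF3, -0.50 ± 0.27, with an interval from -1.07 to 0.07 (limma adjusted p = 0.443), and that of PIF4 was -0.11, with an interval from -0.74 to 0.52.

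The size and makeup of the PIF transcript pool are given as a description. The 6 PIF genes summed to 127 ± 8.88 TPM in the combined line, 149.9 ± 16.0 TPM in h3.3kd, 128 ± 17.4 TPM in h2a.z and 133 ± 16.7 TPM in Col (SD, n = 3 each). PIF4 made up 14.9 ± 0.570% of that sum in the combined line, 24.7 ± 4.59% in h3.3kd, 16.2 ± 3.34% in h2a.z and 27.6 ± 2.20% in Col. The lowest h3.3kd library, at 19.4%, lay below the highest h2a.z library, at 20.1%. In Col PIF4 was the most abundant PIF by mean, at 36.9 TPM beside 34.6 TPM for PIF5, whereas in the combined line PIF1, PIF5 and PIF3 all had higher means than PIF4. The libraries of PIF4 and PIF5 overlapped in Col, as did those of PIF3 and PIF4 in the combined line. The ratio of PIF4 to PIF5 was chosen after the values were seen and is so given without a test. It was 0.629, 0.654 and 0.571 in the combined line, 1.21, 0.805 and 1.09 in h3.3kd, 0.598, 0.513 and 0.491 in h2a.z and 1.02, 0.994 and 1.17 in Col. The combined line and h2a.z lay below h3.3kd and Col in every library. The first h2a.z library, in which both genes were high, had a ratio of 0.598, near that of the other 2. HFR1, PIL1 and PAR1 together summed to 33.4 ± 3.95 TPM in the combined line, 36.8 ± 9.23 TPM in h3.3kd, 51.8 ± 5.84 TPM in h2a.z and 48.4 ± 13.8 TPM in Col.

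**Figure D4:**
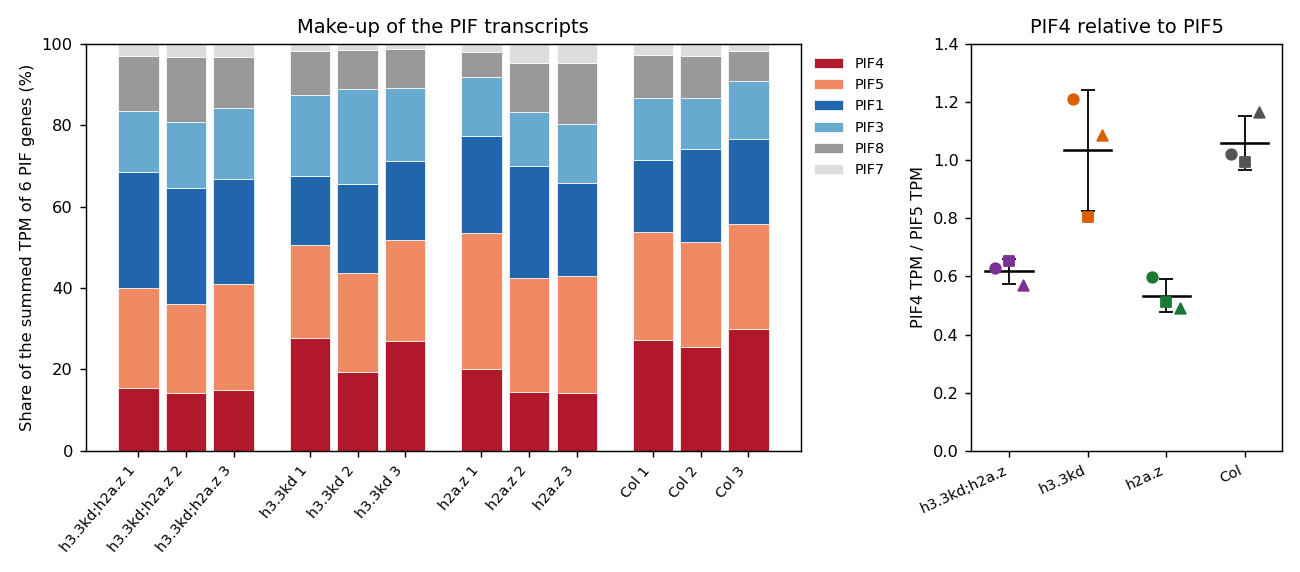
Left, the share of each of 6 PIF genes in their summed TPM, in percent, as 1 stacked bar per library, and right, the ratio of PIF4 to PIF5 TPM per library with the mean and SD, with genotypes ordered as combined line, h3.3kd, h2a.z and Col. The PIF4 share averages 14.9% in the combined line and 16.2% in h2a.z, beside 24.7% in h3.3kd and 27.6% in Col.

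The tested genes whose log2(TPM + 1) values most resembled those of a member over the 12 libraries are given as a description, by Pearson's r with no p, since libraries of a genotype share their differences. For PIF4 they were AT3G02860 (r = 0.949), CYN (AT3G23490, r = 0.943) and BZIP9 (AT5G24800, r = 0.920). CYN averaged 39.1 TPM in the combined line, 97.8 TPM in h3.3kd, 40.8 TPM in h2a.z and 97.7 TPM in Col. For PIL1 they were AT4G11211 (r = 0.977), AT1G76955 (r = 0.968) and AT1G70985 (r = 0.967), and AT4G11211 averaged 43.0 TPM in the combined line, 32.0 TPM in h3.3kd, 109 TPM in h2a.z and 93.1 TPM in Col. PIF3 was most like OST1 (r = 0.947), LOS4 (r = 0.941) and DFB (r = 0.937), and PAR1 most like ATHXK4 (r = 0.954), AT5G23760 (r = 0.948) and TIM13 (r = 0.945). PIF5 was most like RCE1 (r = 0.955), LIP1 (r = 0.947) and AT3G06330 (r = 0.931), and PIF1 most like AT1G14710 (r = 0.942), AT4G32760 (r = 0.936) and AT2G33490 (r = 0.928). PIF7 was most like AT3G01160 (r = 0.920), AT3G03060 (r = 0.918) and HSP60 (r = 0.908). For HFR1 they were AT3G25400 (r = 0.897), AT5G59260 (r = 0.887) and AT2G35830 (r = 0.879), and for PIF8 AT4G28570 (r = 0.874), AT5G53440 (r = 0.868) and FIP1[V] (r = 0.864).

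Among related growth bHLH genes, the list of 21 held 19 in the table and 18 that passed the filter. In the combined line against Col 1 of 18 rose and 9 fell, where 6.17% of all tested genes rose and 12.6% fell, and the median difference was -0.68 beside -0.10 for all. In h3.3kd against Col 1 of 18 rose and 7 fell, where 5.41% of all genes rose and 11.9% fell, at a median of -0.54 beside -0.12. In h2a.z against Col 1 rose and 1 fell, where 10.5% of all genes rose and 4.56% fell, at a median of -0.17 beside 0.05. The counts of called genes depended on the fit, from 4 to 11 in the combined line, from 3 to 10 in h3.3kd and from 1 to 6 in h2a.z over all alternatives.

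The bHLH genes that fell included inhibitors and promoters of growth alike. PAR2, the close relative of PAR1, had 8.24 ± 2.70 TPM in the combined line, 6.82 ± 1.48 TPM in h3.3kd, 26.6 ± 2.20 TPM in h2a.z and 23.2 ± 6.50 TPM in Col. It fell by 1.38 ± 0.24 in the combined line against Col (limma adjusted p = 0.0011) and by 1.61 ± 0.24 in h3.3kd against Col (limma adjusted p = 6.0e-04), both in every setting. AIF1, an inhibitor of growth that binds other bHLH proteins, fell by 1.78 ± 0.19 in the combined line and by 1.50 ± 0.19 in h3.3kd against Col (limma adjusted p = 2.8e-05 and 2.0e-04), with 6.79 ± 0.477 TPM in the combined line, 8.57 ± 1.87 TPM in h3.3kd, 15.3 ± 2.53 TPM in h2a.z and 26.0 ± 4.75 TPM in Col. PRE3, a small helix-loop-helix protein that promotes growth by binding such inhibitors, fell by 2.12 ± 0.36 in the combined line against Col (limma adjusted p = 0.0011), and PRE2 of the same family fell by 1.70 ± 0.32 in h3.3kd against Col (limma adjusted p = 0.0029). SPT, a bHLH factor that restrains leaf growth, rose by 0.91 ± 0.17 in h2a.z against Col (limma adjusted p = 0.0016), at 21.7 ± 2.42 TPM in h2a.z and 11.1 ± 1.74 TPM in Col. The fall of AIF1 in h2a.z against Col, 0.72 ± 0.19 (limma adjusted p = 0.021), ended without h2a.z replicate 1 or 2 (0.096 and 0.054) and without Col replicate 1 or 2 (0.086 and 0.050).

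Of 21 genes known to be activated by PIFs, all of which passed the filter, 2 rose and 8 fell in the combined line against Col, 1 rose and 9 fell in h3.3kd against Col, and 5 rose and 2 fell in h2a.z against Col. In the main fit, calls over all tested genes split the same way. More were lower than higher in the combined line (12.6% and 6.17%) and in h3.3kd (11.9% and 5.41%), and more were higher than lower in h2a.z (10.5% and 4.56%). That split over all genes depended on the scaling. After quantile normalization 50.2% of such calls were higher in the combined line, 52.8% in h3.3kd and 54.6% in h2a.z. Their median difference was -0.41 in the combined line, where that of all tested genes was -0.10. It was -0.35 in h3.3kd, beside -0.12 for all, and -0.19 in h2a.z, beside 0.05. Over all alternatives 9 to 12 were called in the combined line, 4 to 11 in h3.3kd and 3 to 9 in h2a.z. By direction these were 2 higher and 7 to 10 lower in the combined line, and 0 to 1 higher and 4 to 10 lower in h3.3kd. In h2a.z they were 2 to 6 higher and 0 to 4 lower. ST2A, a sulfotransferase that lowers active jasmonate, had 4.66 ± 2.07 TPM in the combined line, 7.05 ± 3.28 TPM in h3.3kd, 45.2 ± 9.35 TPM in h2a.z and 26.9 ± 2.34 TPM in Col. It fell by 2.36 ± 0.31 in the combined line and by 1.89 ± 0.31 in h3.3kd against Col (limma adjusted p = 1.1e-04 and 0.0011). XTR7, an enzyme of cell wall loosening, and ACS8, an enzyme of ethylene synthesis, also fell in both, by 2.07 ± 0.18 and 2.85 ± 0.28 in the combined line and by 1.96 ± 0.18 and 2.36 ± 0.28 in h3.3kd. In h2a.z against Col, CYP79B2, which makes a precursor of indole compounds, rose by 1.39 ± 0.28 (limma adjusted p = 0.0038), and TAA1, the first enzyme of auxin synthesis, rose by 0.80 ± 0.18 (limma adjusted p = 0.0078). IAA29, an auxin-response repressor, fell by 1.10 ± 0.29 there (limma adjusted p = 0.017), which ended without h2a.z replicate 1 or 2 (0.054 and 0.060) and without Col replicate 1 (0.067).

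**Figure D5:**
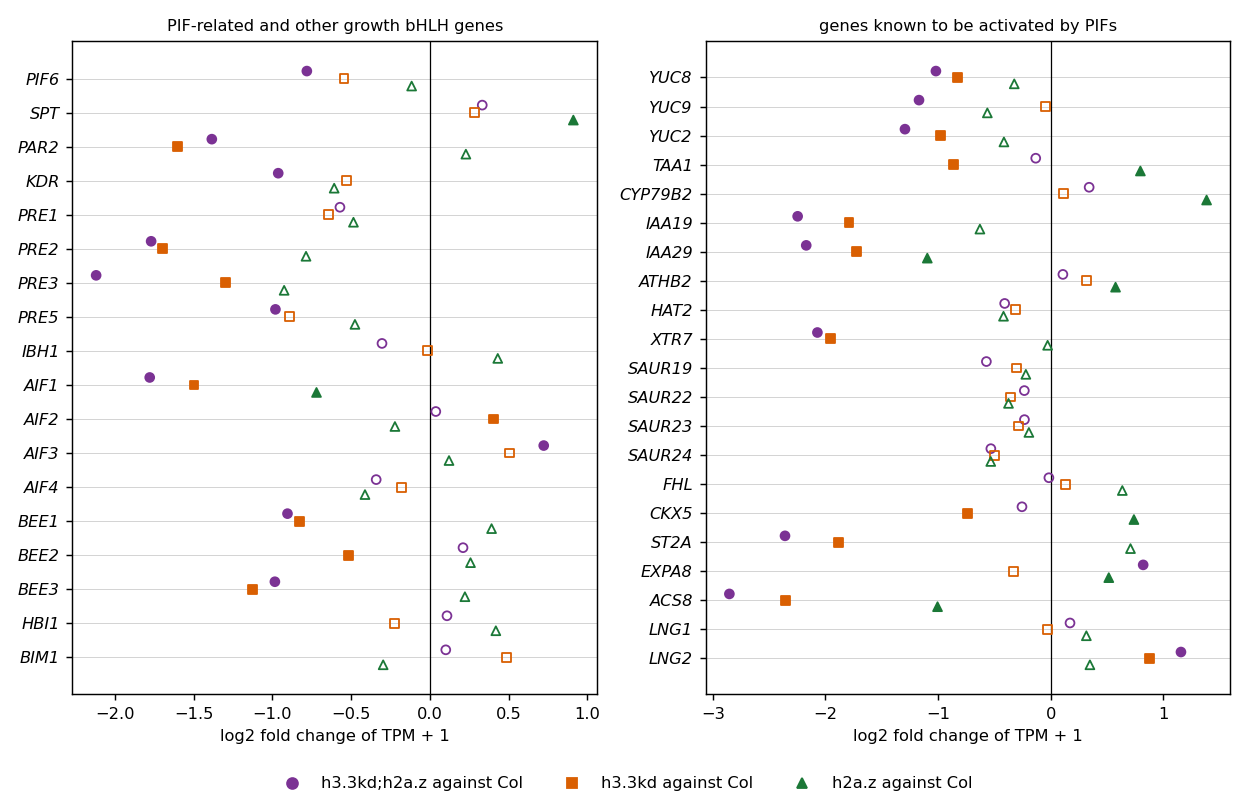
Differences from Col on the log2(TPM + 1) scale for 18 related bHLH genes and 21 PIF-activated genes, with 1 row per gene, 3 points per row for the combined line, h3.3kd and h2a.z, and filled points for calls at an adjusted p under 0.05. Most filled points of the combined line and h3.3kd lie left of 0, such as PAR2 at -1.38 and -1.61, and those of h2a.z lie on both sides.

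The regulators of PIF level and activity were 19 photoreceptor, clock and signalling genes, with RGA, GAI and BZR1 of hormone pathways among them. They gave 2 calls, both higher, in the combined line against Col, 0 in h3.3kd and 2, both lower, in h2a.z. In those lines 18.7%, 17.3% and 15.1% of all tested genes were called. Over all alternatives the calls numbered 0 to 3 in the combined line, 0 to 1 in h3.3kd and 0 to 4 in h2a.z. Those calls were PHYA and PHYD in the combined line and HY5 and PHYD in h2a.z, and each ended in 6 or more alternatives that include leaving out single libraries, so they are named only to account for the counts. ELF3, ELF4 and LUX, the evening complex that represses PIF4, were not called. In h2a.z against Col the difference was -0.74 ± 0.25 for ELF4 (limma adjusted p = 0.057), -0.30 ± 0.20 for ELF3 (limma adjusted p = 0.387) and 0.05 ± 0.14 for LUX. Every h2a.z library lay below every Col library for ELF4 and ELF3, where libraries did not overlap for 34.4% of all tested genes. TOC1, HY5, PHYD and PHYE also lay below Col without overlap there, and PHYA and PHYC above it. Of 10 tested genes of chlorophyll and carotenoid synthesis, 0 rose and 1 fell in the combined line against Col, and 0 were called in h3.3kd and in h2a.z. The gene that fell was CAO, which makes chlorophyll b, by 0.55 ± 0.15 (limma adjusted p = 0.021), and its call ended without combined-line replicate 1, 2 or 3 (0.065, 0.074 and 0.059) and without Col replicate 2 or 3 (0.069 and 0.073). Over all alternatives the calls numbered 0 to 1 in the combined line, 0 to 2 in h3.3kd and 0 in h2a.z.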

How the data were processed

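RNA was extracted from whole seedlings and sequenced as NEBNext libraries, per the labels' protocols. The authors deposited 1 table of TPM for 23387 genes in 12 libraries, each column summing to 1000000. Per the submitters' processing notes the tools were fastp 0.20.1, HISAT2, HTSeq 0.11.2 and DESeq2 1.26.0 with build TAIR10, and the gene identifiers name Araport11. The sources used here do not state gene lengths, counting mode, strand setting or filters. TPM keeps no depth, so no counting intervals were computed and count tests were not run.

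A pseudocount of 1 was added to TPM before the log2, and the 19937 genes that reached 1 TPM in 3 or more libraries were tested. One limma 3.58.1 fit (R 4.3.3, eBayes with trend) held all 12 libraries and 4 genotype means. P-values were adjusted within each contrast by the Benjamini-Hochberg method over the 19937 genes. The threshold for a call was an adjusted p below 0.05. Fold changes are differences on that scale. Intervals are limma's at 95%. Tables and figures were made with Python 3.11.15, pandas 2.3.3, numpy 2.4.6 and matplotlib 3.10.9.

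Upstream sequences were read from the RefSeq TAIR10.1 genome and annotation, which also gave symbols. The deposited table holds no coordinates. RefSeq lists PIF1 as PIL5, PIF5 as PIL6 and PIF8 as UNE10.

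The members, gene lists and tests were chosen with earlier results of these data known. Named genes were all members, from each list the up to 3 called genes of smallest adjusted p against Col in each line, and for each member the 3 most correlated tested genes. Marker and histone genes, and light and clock regulators without a call, were named outside this rule.

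For Col and h3.3kd, libraries with the same replicate number deviated together from their genotype means, with correlations of 0.314, 0.221 and 0.115 over genes. The replicate numbers were therefore taken to pair these libraries, but only in the alternative fits with a replicate block. The main fit held no block, and values of h3.3kd against Col are from it unless a block is named. Over all genotypes the 18 same-number correlations ran from -0.176 to 0.314, and 6 were over 0.1. Among those were the combined line with Col for replicate 1 (0.131) and with h3.3kd for replicates 2 and 3 (0.113 and 0.158). The 36 correlations between unlike numbers ran from -0.268 to 0.174, with 0.116 for Col replicate 3 and h3.3kd replicate 2.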

Additional observations from a re-analysis of the deposited data

How the results depend on the processing

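Over all alternatives, 1102 of 1128 member differences kept their side of the threshold, 24 were no longer called and 2 became called. No difference that was called in either fit reversed its direction. Some uncalled ones did, such as PIF4 in h3.3kd against Col, which ran from -0.13 to 0.15. No member was called in the interaction under any alternative.

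Member calls in h3.3kd against Col numbered 2, but 1 under each of the filter of 1 TPM in all 12 libraries, the fit of the 2 genotypes alone and the replicate block with the 2 genotypes alone, and 1 to 3 leaving out a library. In h2a.z against Col they numbered 1, and 0 to 1 leaving out a library. In the combined line against Col they numbered 2, but 1 with a pseudocount of 0.1, 1 under that filter, 1 after quantile normalization, and 1 to 2 leaving out a library. Against h3.3kd they numbered 1, and 0 to 1 leaving out a library. Against h2a.z they numbered 2, but 1 under that filter, 1 after median-ratio rescaling, 1 after quantile normalization, and 1 to 2 leaving out a library. Each drop under that filter was that of PIL1, which was not tested there, and not of a call that failed the test.

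Calls over all genes moved more. In h3.3kd against Col 3450 genes were called, 1071 in the fit of the 2 genotypes alone and 1728 with the replicate block in that fit, and 2177 to 4424 leaving out a library. In h2a.z against Col 3009 were called, 1797 under the stricter filter and 2011 to 3947 leaving out a library. In the combined line against Col 3738 were called, and 2363 to 5033 leaving out a library. Against h3.3kd 848 were called, 551 under the stricter filter, 380 in the fit of 2 genotypes and 421 to 1545 leaving out a library. Against h2a.z 4916 were called, 7872 in the fit of 2 genotypes and 3468 to 6276 leaving out a library. The interaction had 496 calls, 268 with a pseudocount of 0.1, 172 under the stricter filter and 286 to 695 leaving out a library. The cause of these moves was not tested.

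Median-ratio rescaling moved the median of all genes in the combined line against h2a.z from -0.15 to -0.02, and in h3.3kd against Col from -0.12 to -0.03. The share of calls that were higher was 31.3% in h3.3kd against Col, 48.0% after that rescaling and 52.8% after quantile normalization, and it was 32.9%, 45.8% and 50.2% in the combined line against Col. It was 21.7%, 37.9% and 50.4% in the combined line against h2a.z, and 69.8%, 64.9% and 54.6% in h2a.z against Col. Apart from h3.3kd with Col, the replicate numbers were not taken to pair the samples, and whether they do is not settled. The replicate block over all 12 libraries brought in PAR1 in h3.3kd against Col (limma adjusted p = 0.037) and ended no member's call. Depth is unknown, so limits for PIL1 and PIF7, the lowest members, cannot be given.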
